A study of Mus musculus with 12 samples.

Results

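Very long introns, defined here as introns of at least 100 kb, were followed through the reads that join the exons on either side of them. Members were the distinct intron coordinates of the first deposited table with a length of at least 100000 bp and at least 200 spliced reads summed over its 8 libraries. That rule kept 615 of the 5864 coordinates of this length, out of 608954 distinct coordinates in the table. Members were thus chosen by length and by total reads, and their lengths and totals are given below as a description, with no test. The label was checked against the mouse annotation: 593 of the 615 coordinates matched an annotated intron in position and strand, and 22 did not. Tests, shares and levels in the report are for the 593. Counts of genes and of members per gene, lengths and summed reads are for all 615. The 22 are also described separately.

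An intron is the part of a primary transcript that is removed by the spliceosome, and RNA polymerase II has to copy all of it before its downstream splice site exists. Very long introns are common in genes of the nervous system, among them genes for cell adhesion molecules, ion channels, neurotransmitter receptors and their scaffolds, where they often separate a distant promoter from the body of the gene. A read across the exon-exon junction shows that the intron was copied and removed in that RNA molecule. It does not show when this happened.

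The samples were polyadenylated RNA of NMRI wild type mice, read in 12 strand-specific libraries of 6 groups with 2 libraries each. P10 and P49 were neocortex at postnatal days 10 and 49, with no treatment. Control was dissociated neocortical cells of E16.5 embryos kept in culture for 14 days, with no treatment. DRB, an inhibitor of transcription elongation, was given to such cultures for 2 hours at 50 uM. In the first table, 6 columns of unspliced reads that stand beside the junction columns of these DRB libraries carry TTX in their names, and the sample labels do not mention it. TTX blocks action potentials, and whether the first DRB cultures also received it is not given in the sources, so DRB and TTX cannot be told apart in the comparison with control. In a second experiment, cultures received the same DRB dose alone, or that dose with bicuculline, a blocker of GABA-A receptors that raises network activity, for 1 hour at 20 uM. The series set out to measure retained introns and their change with age, with blocked transcription and with activity. The junction reads used here are the spliced counterpart. The labels do not state that libraries of one group are from different animals or different cultures, so the p-values cover only the spread among the libraries at hand, and that spread may be technical. Cultures and tissue hold several cell types, so fewer cells of a type and less RNA per cell cannot be told apart.

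Libraries held 49559425 to 73900724 spliced reads. No member was at 0 in any library. Of the 593, 574 had at least 10 reads in every library of the first experiment, and 586 in every library of the second. Very long introns had 2110 and 2162 CPM (reads-per-million, here of all annotated junction reads) in the control libraries, the lowest of all 12. The other libraries of the first table ranged from 2459 to 2634, and those of the second table from 2607 to 2668. Marker genes of the labelled cell types were present. Summed over 5 neuronal markers, levels were 3129 and 3194 CPM after TMM scaling, the scale of all levels below, at P10, 5114 and 5194 at P49, 1390 and 1459 in control and 2590 and 2682 with DRB. Endothelial markers were at 2.02 to 2.54 CPM in the cultures of the first table and at 0.077 to 0.193 CPM in those of the second. Cldn5 had no junction in the fit of either table, tissue included, so its absence says nothing about the cultures. Flt1 had none in the fit of the second, and the sums leave these genes out.

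The 615 members lay in 402 genes (398 for the 593 annotated ones) and were 100004 to 593607 bp long, with a median of 145244 bp. Their summed reads ran from 200 to 26257 in the first table, with a median of 977 (1023 for the 593). In the second table, which the rule did not use, all 615 were found, with 21 to 10863 reads. At the edge of the length rule, introns of Tln2 (99624 bp, 1384 reads) and Nav3 (99854 bp, 896 reads) were just outside, and introns of Slc24a2 (100004 bp, 1036 reads) and Chchd6 (100113 bp, 8720 reads) just inside. At the edge of the read rule, introns of Prdm16 (196 reads) and Gm10754 (199 reads) were outside and a pair of Lrp1b introns with 200 reads each inside. The plot of length against reads shows every member by both values that chose it.

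**Figure D1:**
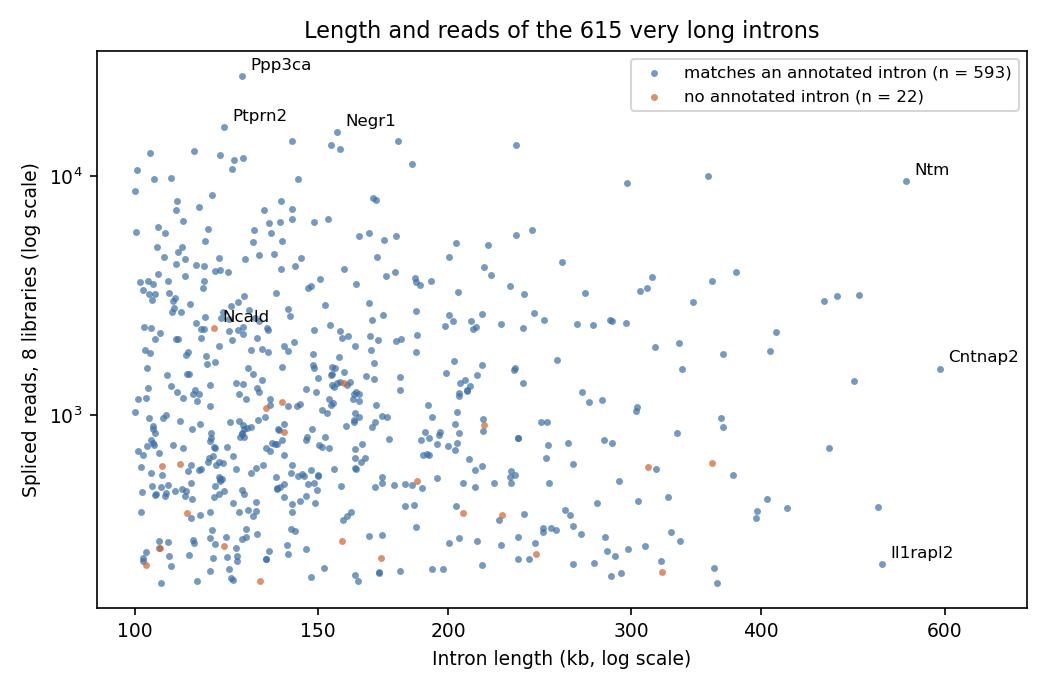
Each point is one of the 615 very long introns, with its length in kb on the horizontal log axis and its spliced reads over the 8 libraries of the first table on the vertical log axis. The 593 that match an annotated intron are blue and the 22 others orange. Ppp3ca has the most reads (26257) and Cntnap2 the greatest length (593607 bp).

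The junctions that carry the results below were written out from the GENCODE transcripts of build GRCm38. Each run is the last 15 bases of the upstream exon in lower case, followed by the first 15 bases of the downstream exon in capitals, so the intron lies between the last small letter and the first capital. Ppp3ca and Ntm are shown as the most read and the most read of the 3 longest introns, and Cntnap2 as the longest. Dlgap1, Rbfox1 and Dclk1 are shown for their changes with age.
Ppp3ca, chr3:136670902-136797725, plus strand: acagggtggtgaaagCCGTTCCATTTCCAC
Ntm, chr9:29411641-29962844, minus strand: tgtgcctcttccaagGAGTGCCGGTGCGTA
Cntnap2, chr6:45060387-45653993, plus strand: ctccctccacgttccAAAAATGTGATGAGC
Dlgap1, chr17:69969671-70078261, plus strand: agactgcgggcagcgAAAACTGTGGGTGAT
Dlgap1, chr17:70078424-70308046, plus strand: gtctcacccggactgCGCTCTTGAGCATCT
Dlgap1, chr17:70308171-70424795, plus strand: cagagagcatcaaagGTTACATCTGCTCTG
Rbfox1, chr16:5885865-6173604, plus strand: cgccaggagttctagGAAACAGCTCAAAGA
Dclk1, chr3:55256212-55380780, plus strand: ctggatgggaagcagGTGATGTGCCTTCAG

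Celf2 and Dpp10 are shown because several of their very long introns start from different first exons. The capitals of the first 3 lines below are identical, since those 3 Celf2 introns end at one acceptor, and the same holds for the pair of Dpp10 lines. The last 2 Celf2 lines have acceptors of their own.
Celf2, chr2:6721614-6872355, minus strand: cgttgctgacagaatTAACGGCACAGCCAA
Celf2, chr2:6721614-6884366, minus strand: ctctcgtgttatcagTAACGGCACAGCCAA
Celf2, chr2:6721614-6884851, minus strand: ggagctgcttttaagTAACGGCACAGCCAA
Dpp10, chr1:123905177-124045124, minus strand: gaagcgggcagagagGAACTAGGAAGTAAC
Dpp10, chr1:123905177-124045371, minus strand: cagccagccgaccagGAACTAGGAAGTAAC
Celf2, chr2:6962415-7081106, minus strand: ctggaaagcgttaagAGAGACTGCCACAGA
Celf2, chr2:7185511-7395857, minus strand: tgctgcaacgtgctgGTCTGCCCTGCTGCA

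Very long introns were the first intron of their annotated transcripts more often than other introns were. The order is counted within a transcript, so an intron from a first exon inside the gene also counts as first. Of the 593, 189 (31.9%) were the first intron of every annotated transcript that held them, against 9.52% of the 152351 annotated junctions tested in the first table. A further 71 (12.0%) were first in some transcripts, and 333 (56.2%) were never first. The start codon lay downstream of 86 (14.5%), so that these were removed from the 5' untranslated region, against 4.80% of all junctions tested. It lay upstream of 484 (81.6%), and protein-coding transcripts held 576 (97.1%). These shares are a description with no test.

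Most of the genes had a single very long intron (280 of 402), 71 had 2, and 51 had 3 or more. Ptprd, a receptor tyrosine phosphatase of synapses, had 9, which add up to 1701417 bp. Cntnap2, a neurexin relative, Rbfox1, a splicing regulator, and Lingo2, a leucine-rich membrane protein, had 6 each. Those of Rbfox1 and Lingo2 include members that match no annotated intron. Members of 1 gene share transcripts and are not independent of each other.

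Splicing across these introns was usually to a single partner. In 577 of 593 (97.3%), the member took at least 95% of the annotated junction reads at its donor, against 96.1% of all junctions tested. At the acceptor 556 (93.8%) did so, against 95.8% of all. A member took under 50% of the reads at its acceptor in 15 cases (2.53%), among them the Celf2, Dpp10 and Rbfox1 introns described below.

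In the median, the reads across a very long intron were a little under the mean of the other junctions of its gene. Over the members, the median was 81.6% and 81.9% of the mean of the gene's other annotated junctions in the P10 libraries, 83.1% and 83.9% at P49, 88.6% and 89.0% in control, and 85.5% and 88.5% with DRB. In the second experiment, it was 83.5% to 86.3% in the 4 libraries. Against junctions upstream of the member the median was 121% to 136% in all 12 libraries, over the 378 to 383 members that had such junctions. Against junctions downstream it was 74.7% to 83.8%, over 558 to 560 members. In the median, members that had them thus lay above the upstream and below the downstream junctions of their genes. These ratios were not computed for shorter introns, so they cannot be called particular to very long ones. The control libraries were the highest of the first table in the overall ratio, and the P10 libraries the lowest.

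The most read member was the first intron of Ppp3ca, which encodes the catalytic subunit of the phosphatase calcineurin and takes up 126824 bp. It held 3414 and 3675 reads at P10, 6341 and 5527 at P49, 1199 and 1466 in control, and 2248 and 2387 with DRB. No libraries overlapped between these groups once scaled: the levels were 51.3 ± 0.080 CPM at P10, 95.5 ± 1.3 at P49, 23.3 ± 1.8 in control and 39.8 ± 0.59 with DRB (SD, n = 2). In the second experiment it stood at 38.6 ± 0.75 CPM with DRB alone and 37.7 ± 0.14 with bicuculline (SD, n = 2). The next 5 members by reads belonged to Ptprn2, a phosphatase-like protein of secretory vesicles, the adhesion molecules Negr1, Lsamp and Ntm, and the RNA-binding protein Celf4. Between the lowest and highest group mean of the first table, these 5 ranged from 14.3 CPM (Ntm, control) to 42.3 CPM (Lsamp, DRB).

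**Figure D2:**
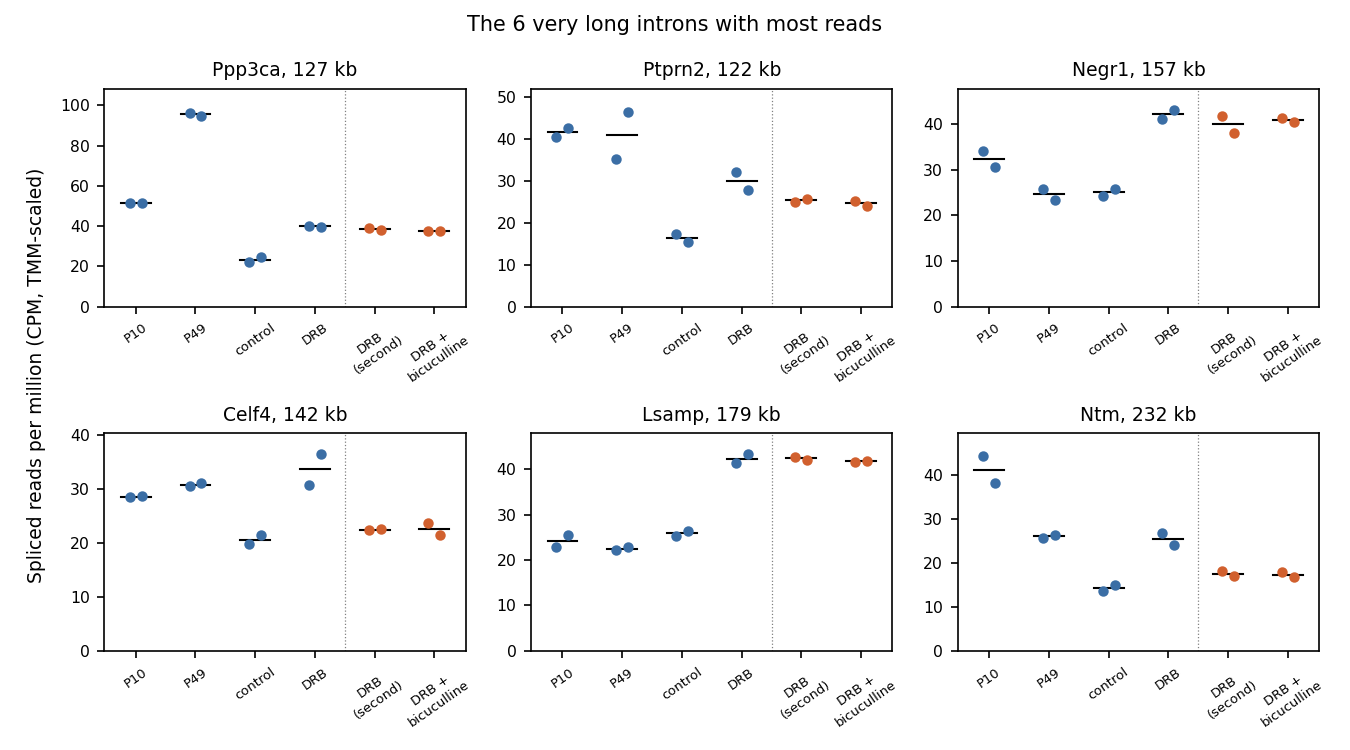
Each panel is one of the 6 very long introns with most reads. Points are single libraries, short lines are group means, and the vertical axis gives spliced reads as CPM after TMM scaling, starting at 0; blue points are from the first table and orange points from the second, which was scaled separately. All 6 introns are lower in the 2 control libraries than in the 2 DRB libraries of the first table, and the orange groups lie close together.

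The longest intron of all was the first intron of one Cntnap2 transcript, with 593607 bp. It held 239 and 217 reads at P10, 310 and 294 at P49, 84 and 115 in control, and 148 and 163 with DRB. Its level rose at P49 by 0.56 ± 0.13 on the log2 scale (SE, edgeR adjusted p = 0.0018) and rose with DRB by 0.62 ± 0.16 (adjusted p = 0.0028). Without control library 1 the change with DRB was 0.46 and did not pass (adjusted p = 0.057). The first intron of Ntm, an adhesion molecule of the IgLON family, had 551204 bp and 1850 and 1609 reads at P10, 1242 and 1037 at P49, 653 and 698 in control and 1234 and 1238 with DRB. It stood at 110% to 164% of the mean of its gene's other junctions in all 8 libraries. The longest on the X chromosome, in Il1rapl2, a receptor-like protein, had 522727 bp and only 22 to 39 reads in each library of the first table, and no change in it passed the test.

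The effect of DRB on very long introns was asked first as a level, that is, as CPM of the junction in the DRB and control cultures. Such a level is relative to the other junction reads of its library. A rise therefore does not show that more of the RNA was made or spliced, and amounts per culture were not measured. Of the 593 members, 294 rose and 48 fell at an adjusted p under 0.05 (edgeR quasi-likelihood test over 152351 junctions, Benjamini-Hochberg adjustment), where 23.3% of all junctions tested rose and 23.2% fell. The median change of the members was 0.50 on the log2 scale, against -0.02 over all junctions tested. The members that rose lay in 194 genes. Without DRB library 1, the number that fell was 28, and over the 4 fits that each left out a library of this comparison 225 to 250 rose.

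The rest of the same genes moved in the same direction. Of the 5471 other annotated junctions of these genes, 47.6% rose and 8.63% fell, with a median change of 0.41. In 534 of 587 members with at least 1 other junction tested, the sign of the member's change was that of the median of its gene's other junctions, and in 545 of 587 the 2 values were within 0.5 of each other on the log2 scale. Pearson's r between them was 0.84 across the 587 members, which share libraries and, in part, genes, and is given as a description.

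By length over all junctions tested, the median change with DRB was 0 for introns under 1 kb, -0.05 for 1 to under 10 kb, 0.07 for 10 to under 100 kb and 0.48 for 100 kb or more. Among the members, it was 0.46 for 100 to under 150 kb, 0.49 for 150 to under 200 kb, 0.53 for 200 to under 300 kb, and 0.59 both for 300 to under 400 kb and for 400 kb or more. None of the 41 members of 300 kb or more fell, and 26 rose. Within the same genes the shorter introns also moved up, by a median of 0.29 under 1 kb, 0.41 from 1 to under 10 kb and 0.47 from 10 to under 100 kb. Members that were always the first intron had a median of 0.39, and those never first 0.53. The differences between these classes were not tested.

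**Figure D3:**
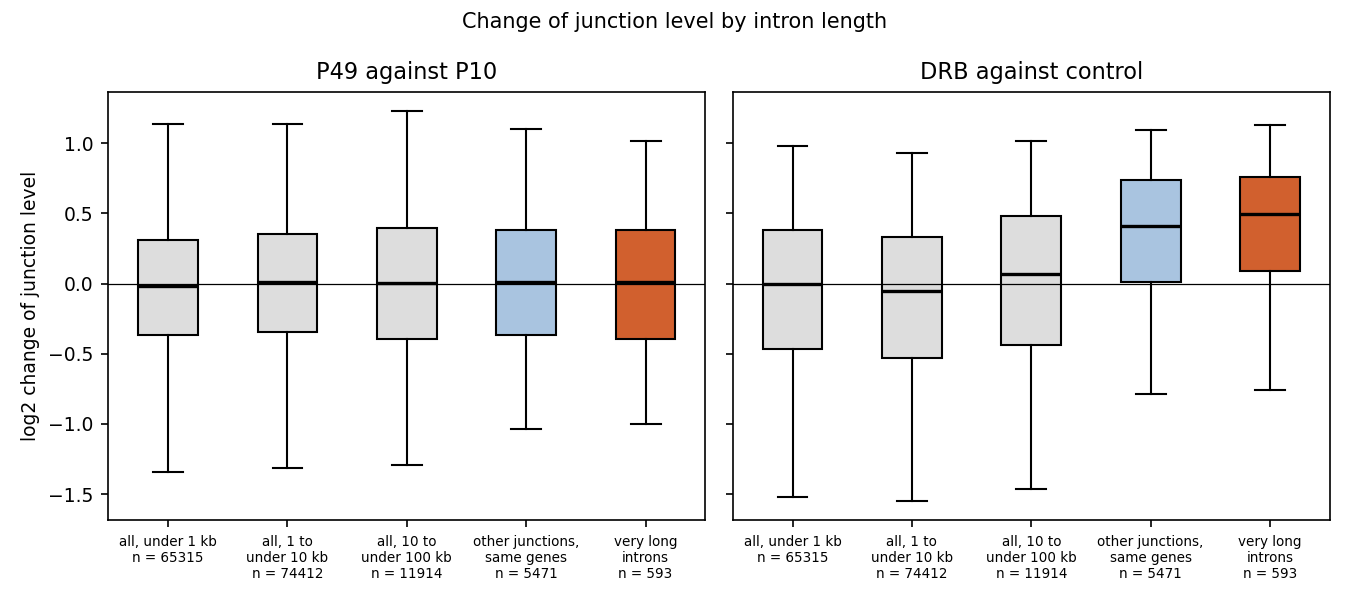
The log2 change of the junction level is shown for P49 against P10 (left) and DRB against control (right). Boxes span the quartiles with the median as a line, and whiskers run from the 5th to the 95th percentile of junctions. On the left the 5 medians lie near 0; on the right those of the very long introns (0.50) and of the other junctions of the same genes (0.41) lie above those of the 3 length classes of all junctions.

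Markers of cell types moved between the same libraries. All 5 neuronal markers were higher in both DRB libraries than in both control libraries, with sums of 1390 and 1459 CPM in control and 2682 and 2590 with DRB. All 4 excitatory neuron markers (669 and 723 CPM in control, 1464 and 1391 with DRB) and all 3 interneuron markers (458 and 482, 712 and 711) were higher too. All 4 fibroblast and mural markers were lower, with sums of 676 and 563 CPM in control and 168 and 165 with DRB, as were both oligodendrocyte precursor markers (111 and 119, 85.3 and 88.1). All 4 oligodendrocyte markers were higher, with sums of 47.7 and 59.6 CPM in control and 107 and 89.5 with DRB. Astrocyte markers summed to 1839 and 1901 CPM in control and 1769 and 1821 with DRB, with 1 of 5 higher and 3 lower. Of 4 microglia markers 1 was higher and 0 lower, and of 2 endothelial markers tested 1 was higher and 1 lower. The share of all genes that separate in this way was not computed. The part of these shifts in the change of the very long introns was not tested.

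The counts by gene list with DRB are read beside the share of all members that rose, 49.6%, and no difference between lists was tested. All 8 members of the IgLON family (Lsamp, Ntm, Negr1 and Opcml, surface proteins with immunoglobulin domains) rose, with a median of 0.80. The member in the second intron of Negr1 had 1322 and 1536 reads in control and 2295 and 2616 with DRB, a rise of 0.75 ± 0.080 (SE, edgeR adjusted p = 8.5e-08). Of 25 members in neurexins, contactins and their relatives, 20 rose and none fell (median 0.75). The intron of Nrxn3, a presynaptic adhesion receptor, at chr12:89976529-90168919 had 292 and 278 reads in control and 336 and 330 with DRB, a change of 0.19 ± 0.11 that did not pass (adjusted p = 0.16). Of 24 members in cadherins and catenins 16 rose and 1, in Cdh2, fell.

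Cdh13, a cadherin held at the membrane by a lipid anchor, changed in both comparisons. The intron at chr8:119095364-119198854 had 1938 and 1961 reads at P10 and 782 and 658 at P49, and 1087 and 1155 in control and 2500 and 2477 with DRB. It fell by 1.29 ± 0.082 at P49 (SE, edgeR adjusted p = 1.5e-11) and rose by 1.12 ± 0.079 with DRB (adjusted p = 2e-10). Neither group overlapped the other in either comparison. Against the other junctions of Cdh13 it stayed at 118% to 131% of their mean in all 8 libraries, and its usage change did not pass in either comparison.

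In synaptic receptors, channels and scaffolds the share that rose was near or above that of all members, and none fell. Among ionotropic glutamate receptors 11 of 18 rose, with a median of 0.60. The second intron of Gria1, an AMPA receptor subunit, held 805 and 798 reads in control and 1097 and 1193 with DRB, a rise of 0.48 ± 0.084 (edgeR adjusted p = 5.5e-05). Of 17 members in metabotropic glutamate and GABA receptors 10 rose and none fell. The first intron of Gabbr2, a GABA-B receptor subunit, went from 383 and 509 reads to 620 and 754. Of 15 in voltage-gated channels and their auxiliary subunits 11 rose and none fell (median 0.70), and of 17 in scaffolds 11 rose and none fell (median 0.66). The member of Erc2, a protein of the presynaptic active zone, went from 336 and 364 reads to 628 and 733, a rise of 0.93 ± 0.092 (adjusted p = 2.7e-08).

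Receptor tyrosine phosphatases had 10 members that rose and 1, in Ptprm, that fell, of 17. Of the 9 in Ptprd, 8 were among those that rose. Latrophilins and teneurins, which pair across synapses, had 5 that rose of 7, and leucine-rich and netrin-G adhesion proteins 3 of 6. No member of either list fell, and DESeq2 called 3 and 2 that rose. A first intron of Lrrc4c, a netrin-G ligand, at chr2:97468421-97603488, had 385 and 404 reads in control and 637 and 645 with DRB.

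Counts were mixed in the further lists. No change passed among the 7 members in CUB and sushi proteins and LDL receptor relatives, nor among the 2 in cyclic nucleotide phosphodiesterases. At Csmd1 chr8:16501393-16697915, reads were 107 and 114 in control and 82 and 113 with DRB, a change of -0.21 ± 0.19 (adjusted p = 0.38). At the first intron of Pde7b they were 33 and 25 in control and 37 and 23 with DRB. Of 5 members in transcription factors 1 rose and 1 fell. The one that fell was the second intron of Nfib, a factor of glial and neuronal development, with 472 and 499 reads in control and 326 and 402 with DRB, a fall of 0.45 ± 0.12 (edgeR adjusted p = 0.0033; 0.068 without DRB library 1). Of 13 in RNA-binding proteins 6 rose and 3 fell. Msi2, a translational regulator of progenitor cells, was one of the 3, with 780 and 822 reads in control and 568 and 781 with DRB, which overlapped in raw reads but not after scaling (14.0 ± 0.39 and 11.5 ± 1.9 CPM). Its fall of 0.28 (edgeR adjusted p = 0.029) was lost in 3 of the 4 fits without a library and with DESeq2, which called 1 of the 13 lower. The others that fell were in Rbms3 and Celf2, of which the Rbms3 member was chosen after its values were seen.

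Neuregulins and their receptor were split by gene. All 4 tested members in Nrg3, a membrane-bound neuregulin, rose with DRB, the first intron of 459873 bp by 0.55 ± 0.11 (edgeR adjusted p = 0.00022). The 4 in Erbb4, the receptor, had changes of -0.05 to -0.17, none of which passed, and the member in Nrg2 fell. Both members in fibroblast growth factor homologs rose, of which the one in Fgf14 did not pass with DESeq2 or in 3 of the 4 fits without a library. Of 17 members in genes of common fragile sites 5 rose and none fell, and DESeq2 called 3. Those were in Magi2, a scaffold, and Macrod2, and the list shares Magi2 with the scaffolds and Lrp1b with the LDL receptor relatives.

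The relative use of a very long intron was then asked, that is, its reads against the other junctions of its gene. With DRB, the use of 3 of 589 members rose and that of 3 fell (edgeR diffSpliceDGE, adjusted p under 0.05), where 0.814% of the 151131 junctions tested rose and 0.732% fell. The median usage change was -0.03 on the log2 scale, with quartiles of -0.16 and 0.09. Without adjustment, 7 rose and 24 fell at p under 0.05, and the share of all junctions at that threshold was not computed. A median below 0 was not particular to the members. Junctions of 10 to under 100 kb had a median usage change of -0.04, with 0.451% rising and 0.979% falling at an adjusted p under 0.05. The calls were few and depended on single libraries: with control library 1 left out 1 rose, and with DRB library 2 or control library 2 left out none fell. limma's diffSplice on voom weights and the fit of the 4 culture libraries alone each called 8 that fell.

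The use of one Celf2 intron rose with DRB in all 8 alternative fits. Celf2 is an RNA-binding protein that regulates splicing and mRNA stability, and the intron at chr2:7185511-7395857 is the first intron of some of the transcripts that hold it, upstream of the start codon, and starts farther upstream than the other 4 members of the gene. Reads were 137 and 141 in control and 296 and 295 with DRB, while the other groups had 375 and 425 (P10) and 444 and 374 (P49). As a percent of the mean of the gene's other junctions this was 22.9% and 21.8% in control, 40.8% and 37.5% with DRB, 47.7% and 54.0% at P10 and 71.4% and 68.9% at P49. The groups did not overlap in either comparison. Its usage change with DRB was 0.80 (edgeR adjusted p = 1.2e-05; 4.9e-06 to 0.0070 over the alternatives), and its level rose by 1.06 ± 0.12 (SE, adjusted p = 2.9e-07).

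A second Celf2 intron moved the other way. The intron at chr2:6962415-7081106, from another first exon, had 55 and 68 reads in control and 35 and 26 with DRB. Its use fell by 1.29 (edgeR adjusted p = 0.0017), from 9.12% and 10.5% of the mean of the other junctions to 4.74% and 3.25%. That call was lost without DRB library 2 (adjusted p = 0.27) and without control library 2 (adjusted p = 0.12). The 3 Celf2 introns that share the acceptor at 6721614 had no change in use with DRB that passed, with usage changes of -0.12, -0.22 and -0.37.

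The other 4 calls with DRB were lost when a single library was left out. The Sema6d intron at chr2:124143056-124298574, in the 5' untranslated region of a semaphorin that guides axons, had 63 and 59 reads in control and 76 and 99 with DRB. Its use rose by 1.22 (edgeR adjusted p = 0.0014), and the call was lost without either control library (adjusted p = 0.057 and 0.11). The first intron at chr3:67892322-68041193, which the table gives jointly to Schip1, Iqcj and the overlapping Gm21949, had 25 and 38 reads in control and 98 and 84 with DRB. These were 1.39% to 4.38% of the mean of the other junctions, and since the genes overlap its use cannot be given to one of them. Its usage change was 1.25 (adjusted p = 0.00080), lost without DRB library 1 (adjusted p = 0.10) or control library 1 (adjusted p = 0.21). Eml6, a microtubule-associated protein, had 54 and 61 reads in control and 47 and 38 with DRB (usage change -0.96, adjusted p = 0.041), and Dclk1, a microtubule-associated kinase, had 1178 and 1256 and 1548 and 1793 (-0.34, adjusted p = 0.033). Both were lost in each of the 4 fits without a library.

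Adult and developing neocortex gave members that rose and fell in like numbers. At P49 against P10 the level of 136 of 593 members rose and that of 146 fell, where 19.5% of all junctions tested rose and 19.8% fell (edgeR). DESeq2 called 101 and 92. The median change was 0.01 on the log2 scale, with quartiles of -0.40 and 0.38, against -0.0017 over all junctions tested. The member's sign was that of its gene's other junctions in 506 of 587. Summed neuronal markers went from 3194 and 3129 to 5194 and 5114 CPM between P10 and P49 (4 of 5 genes higher, 1 lower). All 4 oligodendrocyte markers were higher, with sums of 915 and 791 and then 2402 and 2457 CPM. All 3 interneuron markers were higher (430 and 373, 731 and 685), both oligodendrocyte precursor markers lower (127 and 133, 75.4 and 77.2), and 3 of 4 fibroblast and mural markers lower (488 and 466, 198 and 202). Other cell types were split. Of 4 excitatory neuron markers 2 were higher and 2 lower, and of 4 microglia markers 1 and 3. Of 5 astrocyte markers 1 was higher and 4 lower, although their sums rose (1250 and 1181, 1636 and 1589). Of 2 endothelial markers tested 1 was higher and 1 lower. The share of all genes that separate in this way was not computed. The part of these shifts in the members' changes was not tested.

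By gene list, the IgLON, cadherin and latrophilin lists held members that fell and none that rose, while 9 of the 17 lists held both. Of all members 24.6% fell, and in latrophilins and teneurins 1 of 7 did. No difference between lists was tested. Of 8 IgLON members 6 fell and none rose, with a median of -0.43, and the 2 in Lsamp did not pass. The Ntm intron at chr9:29179255-29411555 went from 2957 and 2734 reads at P10 to 1693 and 1546 at P49, a fall of 0.66 ± 0.084 (SE, edgeR adjusted p = 1.1e-06). Of 24 cadherin and catenin members 13 fell and none rose (median -0.30), and DESeq2 called 8. The Cdh13 intron described above was among them. The first intron of Fgf13, a fibroblast growth factor homolog that binds sodium channels, fell from 302 and 370 reads to 140 and 102, by 1.32 ± 0.14 (adjusted p = 4.7e-08).

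In voltage-gated channels and auxiliary subunits 7 of 15 rose with age, 1 fell and 7 did not pass, where 22.9% of all members rose. The Dpp10 intron at chr1:123686316-123854165, in an auxiliary subunit of A-type potassium channels, went from 793 and 890 reads to 1172 and 1094, a rise of 0.58 ± 0.084 (SE, edgeR adjusted p = 6.1e-06). In neuregulins and ErbB4 4 of 9 rose, all in Erbb4, and none fell. In CUB and sushi proteins and LDL receptor relatives 4 of 7 rose and none fell (median 0.95), and DESeq2 called 2. The first intron of Pde7b, a phosphodiesterase that hydrolyses cyclic AMP, rose from 72 and 80 reads to 201 and 223, by 1.64 ± 0.21 (adjusted p = 1.1e-06). Further lists with members in both directions were neurexins and contactins (7 rose, 5 fell), scaffolds (7 and 4), ionotropic glutamate receptors (3 and 4), metabotropic glutamate and GABA receptors (3 and 4), RNA-binding proteins (2 and 3), fragile site genes (5 and 2), receptor tyrosine phosphatases (1 and 2) and fibroblast growth factor homologs (1 and 1). DESeq2 called fewer in most of these, among them 4 and 1 for neurexins and contactins, 4 and 4 for scaffolds, 2 and 0 for ionotropic receptors, 1 and 2 for metabotropic receptors, 2 and 1 for RNA-binding proteins and 2 and 0 for fragile site genes.

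In relative use, 8 members rose and 9 fell at P49 out of 589, where 0.79% of all junctions tested rose, 0.748% fell and 1.54% did either (edgeR diffSpliceDGE). The median usage change was 0.01 with quartiles of -0.11 and 0.14. Among the other junctions of the same genes 88 of 5471 rose and 82 fell. The plot of both comparisons shows the members called in either. Leaving out 1 library left 2 to 7 that rose and 7 to 10 that fell. The lower counts for those that rose came without P10 library 2 (2), P49 library 1 (3) and P49 library 2 (2).

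**Figure D4:**
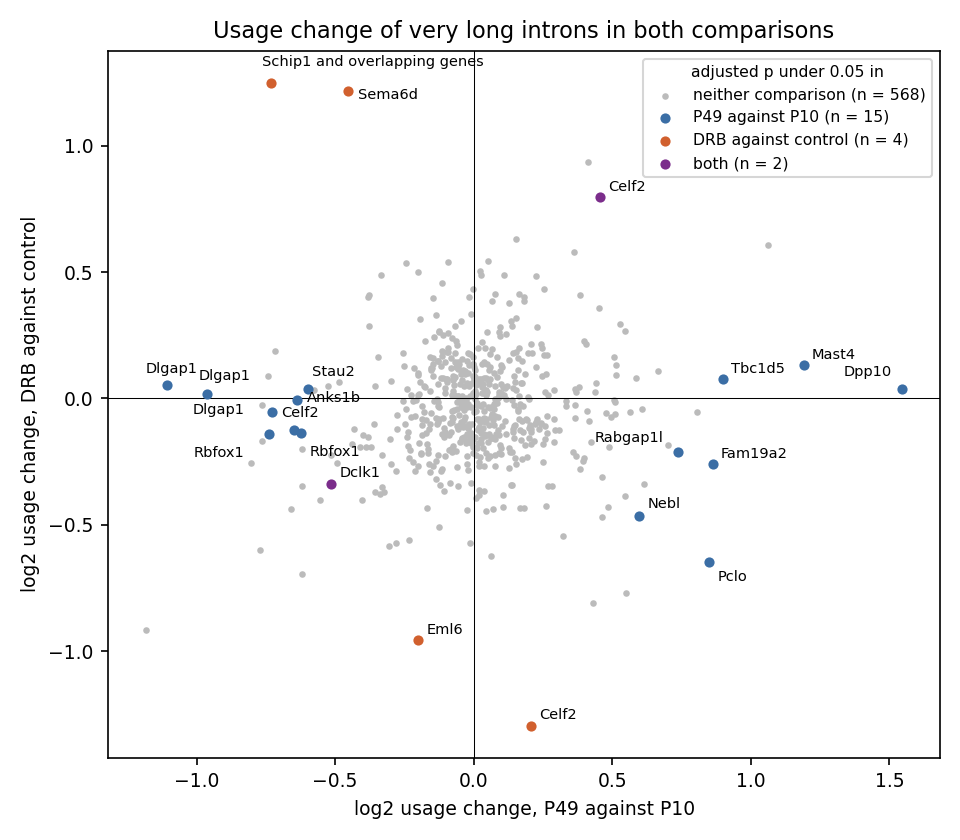
Each point is a very long intron, with the log2 change of its use against the other junctions of its gene at P49 against P10 (horizontal) and with DRB against control (vertical). Coloured, named points passed an adjusted p of 0.05 in at least 1 comparison (15 with age, 4 with DRB, 2 in both), and the 568 grey points in neither. The 3 Dlgap1 introns lie at the left near 0 on the vertical axis.

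A run of 3 introns of Dlgap1, a scaffold protein of the postsynaptic density, fell in use together at P49. They follow one another upstream of the start codon. The intron at chr17:70308171-70424795 had 563 and 630 reads at P10 and 581 and 530 at P49, so that its level did not change (0.05 ± 0.094, edgeR adjusted p = 0.70). Against the other junctions of the gene it went from 108% and 117% of their mean at P10 to 50.4% and 50.2% at P49, a usage change of -1.11 (edgeR adjusted p = 4.5e-15). In control it stood at 157% and 130%, and with DRB at 143% and 154%.

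The intron at chr17:69969671-70078261, a first intron, had 344 and 364 reads at P10 and 376 and 354 at P49. It went from 64.3% and 65.6% to 32.2% and 33.2% of the mean of the other junctions (usage change -0.96, edgeR adjusted p = 3.6e-10). Its level changed by 0.20 ± 0.10 (SE), which did not pass (edgeR adjusted p = 0.14). The next intron, at chr17:70078424-70308046, had 375 and 467 reads at P10 and 556 and 465 at P49, and its use changed by -0.73 (adjusted p = 3.1e-07). Its level rose by 0.43 ± 0.10 (SE, edgeR adjusted p = 0.0016), so its fall in use is relative to the gene's other junctions. The libraries of P10 and P49 did not overlap in use for any of the 3. All 3 calls were kept in all 8 alternatives, with adjusted p of at most 0.0020. For all 3, the order of the groups in use was the same, with control and DRB above P10 and P10 above P49.

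Use of the 2 upstream introns of Rbfox1, a neuronal splicing regulator, also fell. The first intron, at chr16:5885865-6173604, lies upstream of the start codon. It had 450 and 475 reads at P10, 365 and 298 at P49, 150 and 162 in control and 278 and 298 with DRB. Its use went from 45.6% and 48.8% of the mean of the other junctions at P10 to 28.3% and 27.2% at P49 (usage change -0.74, edgeR adjusted p = 8.3e-06), with 66.0% to 77.8% in the cultures. The second, at chr16:6173668-6487818, changed by -0.62 (adjusted p = 2.4e-05) and was outside the rule for named introns, so it was chosen after its values were seen. At its acceptor it took 72.8% and 73.3% of the annotated junction reads at P10 and 59.7% and 55.8% at P49. The rest of the annotated reads belonged to a first intron from another promoter, chr16:6349232-6487818, with 261 and 256 reads at P10 and 379 and 415 at P49. Unannotated introns that start at 6349228 and 6348855 end at the same acceptor and are left out of these shares. The former had 188 and 194 reads at P10 and 251 and 297 at P49, and the latter 202 and 184 and then 93 and 105. The level of the annotated intron at 6349232 rose by 0.78 (adjusted p = 3.9e-05), and its usage change of 0.37 did not pass (adjusted p = 0.31).

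A Celf2 intron that shares its acceptor with other first introns also fell in use with age. The intron at chr2:6721614-6884851 had 455 and 450 reads at P10, 205 and 224 at P49, 526 and 516 in control and 597 and 574 with DRB. It went from 58.1% and 57.3% of the mean of the gene's other junctions at P10 to 32.4% and 40.7% at P49, a usage change of -0.65 (edgeR adjusted p = 5.4e-05). The call was lost without P49 library 1 (-0.49, adjusted p = 0.13). At the shared acceptor, its share of annotated junction reads was 39.4% and 37.4% at P10, 25.3% and 32.3% at P49, and 42.2% to 52.2% in the cultures. The neighbour from the first exon at 6872355 took 42.6% and 44.1% at P10 and 53.9% and 50.1% at P49, and its own use did not change (0.04, adjusted p = 1). The distant Celf2 intron at 7185511 rose in use at P49 by 0.46 (adjusted p = 0.020), a call lost in 3 of the 4 fits without a library.

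Dclk1 and Dpp10 are further cases. The Dclk1 intron at chr3:55256212-55380780, within the coding region, had 1819 and 1914 reads at P10 and 1129 and 1026 at P49, or 71.0% and 72.1% and then 47.7% and 51.4% of the mean of the other junctions. Its use fell by 0.51 (edgeR adjusted p = 3.2e-05) in all 8 alternatives. Its use was 155% and 141% in control and 111% and 118% with DRB. The Dpp10 intron at chr1:123905177-124045124 starts from the less read of 2 first exons whose donors lie 247 bp apart. It had 32 and 15 reads at P10 and 87 and 90 at P49, a usage change of 1.55 (adjusted p = 6.1e-05), lost without P10 library 2 (adjusted p = 0.14). At the acceptor it took 12.3% and 5.34% of the annotated junction reads at P10 and 20.6% and 21.1% at P49. The other intron, chr1:123905177-124045371, had 229 and 266 reads at P10 and 335 and 337 at P49, and its usage change was 0.09 (adjusted p = 1).

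The other named introns that rose in use at P49 lost the call when single libraries were left out. The Mast4 intron at chr13:102853920-103025521, in a microtubule-associated kinase, had 16 and 22 reads at P10 and 63 and 50 at P49, and took 43.2% and 38.6% and then 72.4% and 65.8% of the annotated reads at its acceptor (usage change 1.19, edgeR adjusted p = 0.033, lost in 4 of 4). The intron in the 5' untranslated region of Tbc1d5, a regulator of endosomal trafficking, had 95 and 86 reads at P10 and 116 and 118 at P49 (0.90, adjusted p = 0.0016, lost in 2 of 4). Fam19a2, a secreted chemokine-like protein, had 107 and 142 and 139 and 152 (0.86, adjusted p = 0.014, lost in 3 of 4). Pclo, a scaffold of the presynaptic active zone, had 81 and 53 and 200 and 157 (0.85, adjusted p = 0.014, lost in 3 of 4). Further calls, chosen after their values were seen and not followed through the alternatives, were rises in Rabgap1l (0.74) and Nebl (0.60) and falls in Anks1b (-0.64) and Stau2 (-0.60).

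The 22 members outside the annotation were tested in a fit of all junctions that carry a gene symbol. Of the 21 of them tested in use at P49, 3 rose and 2 fell (edgeR diffSpliceDGE). Of the 162077 junctions in that fit 1.01% rose, 0.841% fell and 1.85% did either. Most of these junctions were annotated, since the test of annotated junctions alone held 151131, of which 1.54% did either. The share among other unannotated junctions with similar reads was not computed. The calls therefore cannot be called particular to very long introns.

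**Figure D5:**
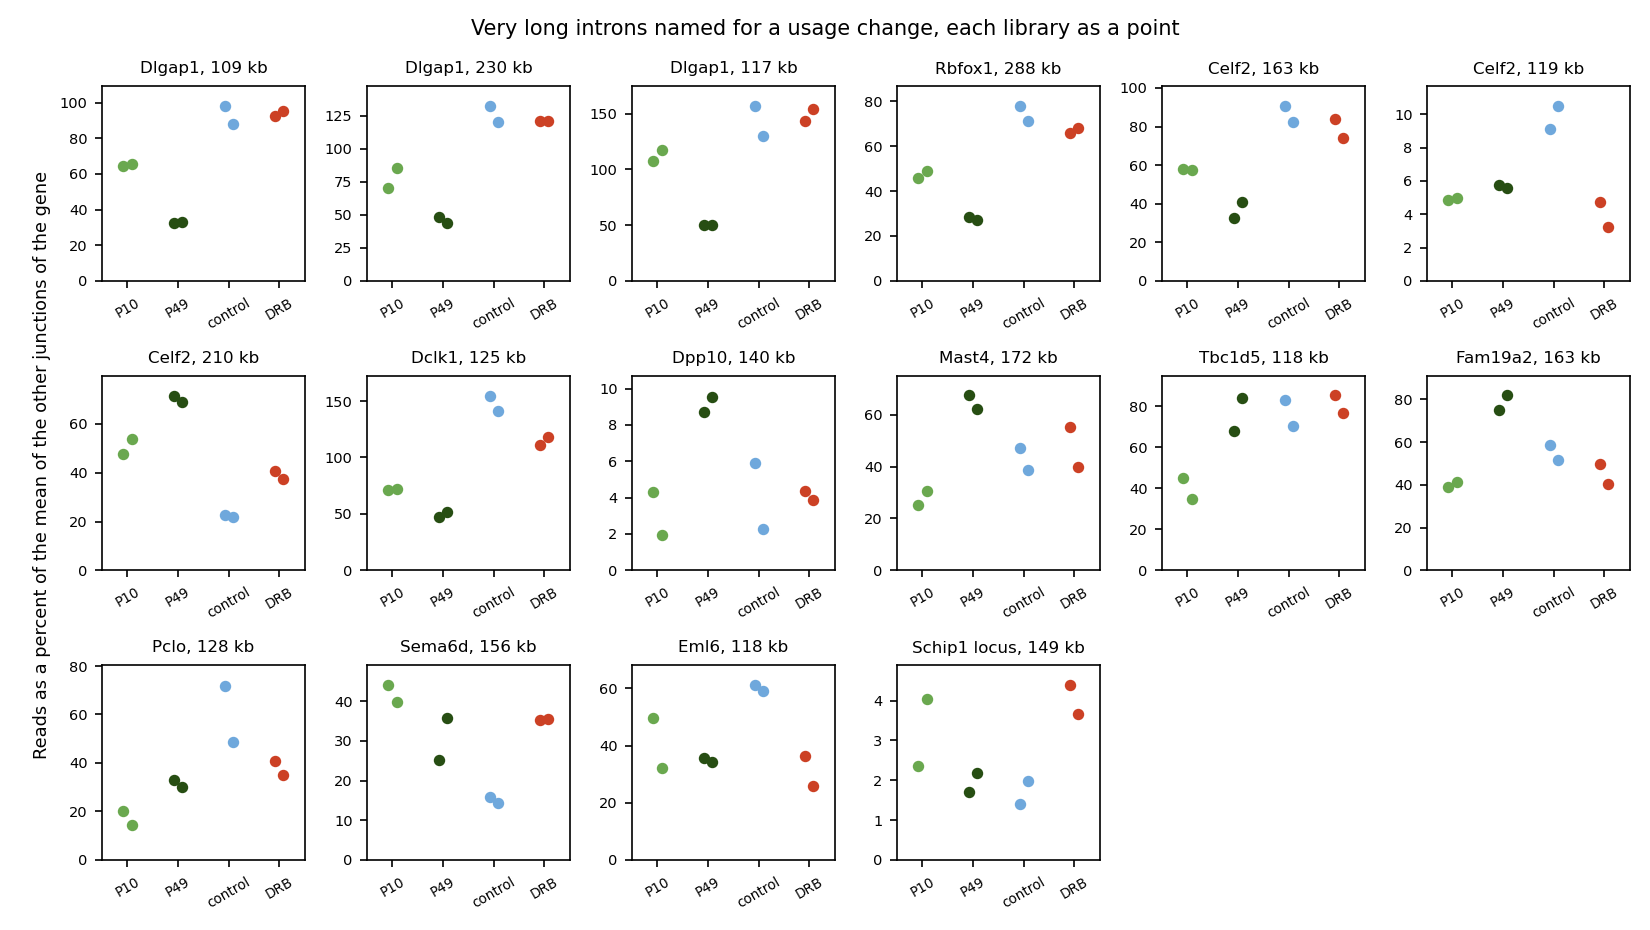
Each panel is a very long intron named for a change in use, with its gene and length. Points are the 8 libraries of the first table, and the vertical axis, from 0, gives the reads of the intron's junction as a percent of the mean reads of the other annotated junctions of its gene. The 3 Dlgap1 panels and the Rbfox1 panel are lowest at P49, and the Celf2 panel of 210 kb is lowest in control.

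Activity was asked about in the second experiment, where bicuculline with DRB was compared with DRB alone. No member changed in level among the 593 tested, nor in use among 586 (edgeR, adjusted p under 0.05). The background was as low, with 0.0679% of 138480 junctions rising and 0.0108% falling in level and 0.00146% and 0.000728% in use (0.00218% in either direction). DESeq2 for level and limma's diffSplice for use called none either. At an unadjusted p under 0.05, 4 members rose and 7 fell in level, and 4 rose and 5 fell in use. The share of all junctions at that unadjusted threshold was not computed. The members' changes in level had a median of -0.02 with 5% under -0.29 and 5% over 0.28, and those in use had a median of -0.0003 with 5% under -0.27 and 5% over 0.26. Without bicuculline library 1, 1 member, in Ctnna2, a catenin, fell in level by 0.395 (adjusted p = 0.0088).

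The most read members show how close these groups were. The first intron of Ppp3ca had 2538 and 2361 reads with DRB alone and 2610 and 2332 with bicuculline. Lsamp, the most read of the second experiment, had 2767 and 2614 and 2881 and 2601. The distant Celf2 intron at 7185511 had 353 and 308 and 344 and 323, and Cdh13 at 119095364 had 1945 and 1703 and 1950 and 1632. Scaled levels of the treatments overlapped for Celf2 and Cdh13 and did not for Ppp3ca and Lsamp. The changes were -0.03 for Ppp3ca, -0.02 for Lsamp, -0.03 for Celf2 and -0.07 for Cdh13, and none passed. On simulated counts with 200 junctions changed 2-fold in this comparison, over 138480 junctions, the test of level and that of use each recovered 89.5%, with 5 false calls of level and 15 of use. The changed junctions were drawn only from those above a minimum of mean reads in genes with several junctions. The same spread between libraries was simulated for every junction. Recovery was therefore not measured for the least read members or for changes under 2-fold.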

How the data were processed

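Spliced reads were measured in 12 libraries of 6 groups. The deposited tables give read counts per intron coordinate, one for 8 libraries and one for 4. STAR 2.4.0f1 and build mm10 are named in the submitters' processing notes, the counting step being not given in the sources used here. Count columns of the authors were read by position, because header lines hold 3 more names than rows hold cells. Columns of control, P49 and the second DRB group were matched by elimination, and library numbers follow column order only. A further 72 value columns were not used.

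Junctions were matched by position and strand to introns of GENCODE release 21 (GRCm38), which left 152351 and 138480 after edgeR's filter on low counts. Level was tested with edgeR 4.0.16 (TMM scaling, quasi-likelihood test) and usage, a junction against the others of its gene, with diffSpliceDGE. All p-values were adjusted by Benjamini-Hochberg over every junction tested, and calls were made at 0.05. limma 3.58.1, DESeq2 1.42.0 and R 4.3.3 served the alternatives. Both tests were tested on simulated data.

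Introns were named by rule: the 8 with most reads, the 3 longest, up to 5 per direction and comparison with the largest usage change and at least 50 reads, and up to 2 per gene list with most reads. Not every intron the rule names is reported here. Others are said to be chosen after their values were seen. Members and the 17 gene lists were chosen with earlier results of these data known. Total reads per library give the depth, and with 2 libraries a group the spread between libraries limits precision.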

Additional observations from a re-analysis of the deposited data

How the results depend on the processing

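Among the introns named by rule, no value that passed its test changed sign under the alternatives run, and the limits lie in the counts. Among members of 200 kb or more, 29 rose and 35 fell in level at P49 and 1 rose and 3 fell in use, while with DRB 80 rose and 7 fell in level and 1 rose and 0 fell in use. Among members with 500 or more reads, 29 fell in level and 1 fell in use with DRB. DESeq2 called 101 higher and 92 lower at P49, against 136 and 146. For use with DRB, limma's diffSplice and the fit of only the groups compared each called 8 lower, against 3. Leaving out each library in turn gave 95 to 125 higher and 100 to 121 lower in level at P49, 2 to 7 and 7 to 10 in use, 225 to 250 and 28 to 37 in level with DRB, and 1 to 3 and 0 to 1 in use. For bicuculline these fits gave 0 higher and 0 to 1 lower in level and 0 either way in use. The cause of these differences was not tested, except that stricter minimums hold fewer members. Of the 168 level values of named introns, 157 kept their side of the threshold with DESeq2 and 11 lost it. The 168 include values that had not passed, all those with bicuculline among them. Only values that had passed could be lost, so the 157 overstate how many calls were kept.

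The second table's columns carry letters, and with the letter as a replicate block 1 member, in Ctnna2, fell in level with bicuculline by 0.255 (edgeR adjusted p = 0.016). Letter differences correlated at 0.11 over 101363 junctions, and nothing says that letters pair libraries. No paired analysis was possible because the columns of the first table carry no replicate letters. The least read members had as few as 3 reads in a library of the first experiment and 6 in one of the second, which limits what can pass there.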

Other observations

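Of the 22 very long introns outside the annotation, most had 1 annotated end. In 13 only the acceptor was an annotated splice site, in 5 only the donor, in 2 both and in 2 neither. Of the 22, 5 lay within 10 bp of an annotated intron. The Dlg2 intron at chr7:91091049-91449756, in a postsynaptic scaffold, ended 3 bp from the annotated acceptor and had 632 reads, against 3647 for the annotated one. In Nrg3 the acceptor differed by 3 bp and the reads were nearly even (1372 and 1523). In Rbfox1 the donor differed by 4 bp (1139 and 1597 reads).

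The most read of them, in Ncald, a neuronal calcium sensor, had 2323 reads over the first table. The changes in use at P49 that passed in the fit of all junctions with a symbol were these 5. The Dlg2 intron at chr7:91262996-91449753, whose donor is not annotated, had 73 and 93 reads at P10 and 117 and 120 at P49, a rise in use of 1.36 (edgeR adjusted p = 4.8e-07). The Rbfox1 intron at chr16:6348855-6487818 had 202 and 184 reads and then 93 and 105, and its use fell by 1.24 (adjusted p = 3.8e-06). It ends at the acceptor of the annotated Rbfox1 introns described above, and its donor lies upstream of 6349232. The others were rises in Ppfia2 (0.94) and Etl4 (0.87) and a fall in Spint1 (-1.12). Neither end of the Spint1 intron is an annotated splice site, so its place in that gene rests only on the deposited symbol.

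Further members with changes in level under DRB lay outside the rule and were chosen after their values were seen. Leprel1, a collagen-modifying enzyme, had 99 and 98 reads in control and 13 and 14 with DRB, a change of -2.89 in level. Bmp6, a secreted growth factor, had 636 and 783 and then 266 and 277 (-1.41). Car10, a carbonic anhydrase relative, had 79 and 115 and then 294 and 234 (1.42). Summed fibroblast and mural markers were 676 and 563 CPM in control and 168 and 165 with DRB, and their part in these values was not tested.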
